A study of Mus musculus with 11 samples.

Results

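The genes described here are 31 regulators of histone acetylation, namely 11 histone deacetylases of the zinc-dependent classes, 7 sirtuins, 10 lysine acetyltransferases and 3 bromodomain proteins. They were chosen by gene name, a rule that uses no measured value, from the 28222 genes of a count table. All 31 were found in the table, and all 31 passed the filter on low counts in each of the 4 comparisons. The data are RNA-seq of polyadenylated RNA from 11 libraries of cultured mouse mesenchymal stem cells (MSCs), stromal cells that can form bone and fat cells. There were 4 groups, which were batch A young (n = 4), batch B young (n = 2), batch B old (n = 2) and batch C old (n = 3). Young mice were 3 to 5 months old and old mice were 18 to 22 months old, and every group was kept at 2% oxygen throughout culture. Sex, strain and the number of mice behind a library were not given in the labels, so that the p-values measure the spread between these libraries, which may be technical.

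Histone acetyltransferases move the acetyl group of acetyl-CoA onto lysines of histone tails, which loosens the contact of histones with DNA and creates docking sites for bromodomains. Deacetylases remove it again, the HDAC classes with the help of zinc and the sirtuins at the expense of NAD. In MSCs, whose fate choice between bone and fat depends on chromatin that can be opened, the balance of these enzymes is known to matter for differentiation. The title of the series concerns chromatin plasticity of MSCs upon ageing, and the comparisons below ask whether the genes for these enzymes differ in RNA level between young and old MSCs and between batches.

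Library totals were between 11969336 and 20315934 counts, so that a floor of 3 counts corresponded to 0.156 to 0.253 CPM (counts scaled to a common library total with TMM factors), below each member in each library. All 12 MSC markers of a fixed list were detected, among them Ly6a and Pdgfra, the genes for Sca-1 and CD140a. Their summed level was 58160 to 66696 CPM in batch A young, 47761 and 28796 in batch B young, 26214 and 27747 in batch B old and 24793 to 25738 in batch C old. Most of that sum was Col1a1, a collagen gene, which had a mean of 55978 CPM in batch A young and 18958 in batch C old, while Cxcl12 (1558 and 2793) and Pdgfra (189 and 278) went the other way. Batch B young replicate 2 stood closer to the old libraries of its batch than to replicate 1 in Col1a1 (42632 and 23940 CPM in batch B young, 22244 and 23429 in batch B old), but not in Ly6a (651 and 778, then 647 and 568) or Nt5e (16.05 and 30.5, then 8.42 and 9.81). The 2 batch B young libraries thus differed from each other. For age in batch B and for batch B against batch A in young MSCs, results are also given without each of them. Class sums, counts of separated libraries and shares of gene pairs are given with both only. Markers of blood cells (22 genes, of which 17 reached 1 CPM in any library) summed to 848 to 1898, 986 and 484, 1379 and 984 and 213 to 252 CPM in the same order of groups, while the T cell marker Cd3e was at or near 0 in all groups. The libraries hold bulk RNA, so that fewer cells of a type and less RNA per cell cannot be told apart.

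Levels of different genes were compared as CPM per kilobase of merged exon length. The class I deacetylases Hdac1, Hdac2 and Hdac3 and the reader Brd2 had the highest levels, and the class IIa deacetylase Hdac9 the lowest. Hdac1, a catalytic subunit of the Sin3, NuRD and CoREST corepressors, had a mean of 31.2 CPM per kilobase over the 4 groups and ranged from 26.5 to 35.9 over the 11 libraries. It thus lay above Hdac3, another class I enzyme that acts in a corepressor complex (mean 21.3, range 15.2 to 25.7), in every library. Hdac3, Hdac2 (mean 19.8, range 16.1 to 21.97) and Brd2 (mean 19.5, range 16.5 to 23.8) followed with overlapping ranges. Sirt2, a mainly cytosolic sirtuin, Hdac7 and Kat2a, also known as GCN5, had means of 11.2, 11.1 and 10.04 CPM per kilobase, again with overlapping ranges. At the other end, Hdac9 had a mean of 0.286 CPM per kilobase, and its highest library (0.389) was below the lowest library of Sirt3 (0.699), the next gene in the order. The mitochondrial sirtuins Sirt3 and Sirt5 were likewise under 1 CPM per kilobase. Of the 31 genes, 19 lay above the median of all tested genes, which was 3.31 CPM per kilobase, and 7 reached 10 CPM per kilobase. The order depends on the length used. Per kilobase of the longest transcript, Hdac1 (52.7) was followed by Brd2 (32.7), Hdac2 (27.3), Sirt2 (26.6) and Hdac3 (24.1), Sirt5 and Sirt3 were at 2.42 and 1.61, and Hdac9 was still lowest at 0.527.

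**Figure D1:**
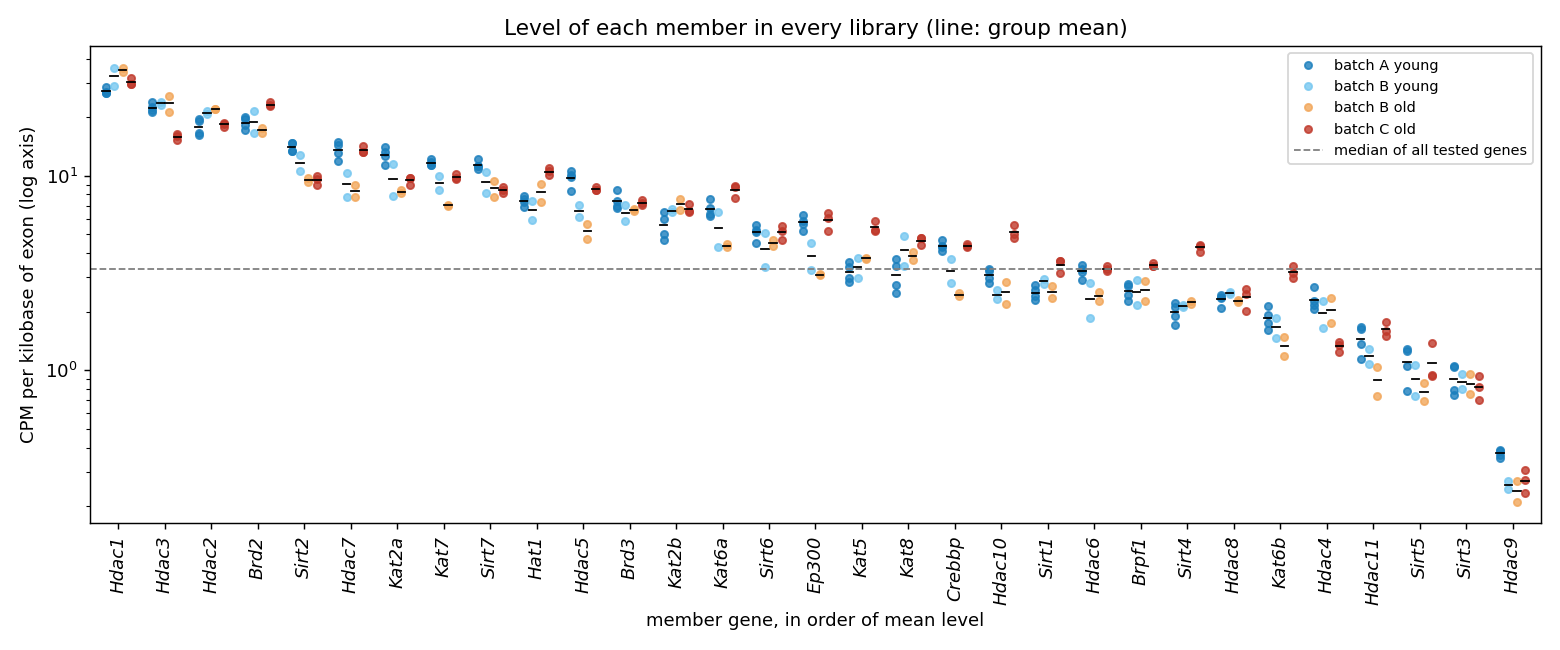
Level of each of the 31 genes in CPM per kilobase of exon (vertical log axis), with a point for each library, the 4 groups side by side and a line at each group mean. Hdac1 leads at a mean of 31.2, Hdac9 is lowest at 0.286, and the dashed line marks the median of all tested genes.

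Levels were also summed over the genes of a class. Ep300 and Crebbp, coactivators that acetylate histone H3 at enhancers, summed to 10.1 ± 0.601 CPM per kilobase (SD, n = 4) in batch A young, 7.12 ± 1.52 (n = 2) in batch B young, 5.54 ± 0.0837 (n = 2) in batch B old and 10.3 ± 0.733 (n = 3) in batch C old. The 5 MYST acetyltransferases summed to 26.6 ± 1.12, 23.8 ± 1.26, 20.4 ± 0.617 and 31.5 ± 0.509 in the same order. In both classes batch B old had the lowest group mean. The same held for class IIa deacetylases (26.0, 17.9, 15.8 and 23.7) and for Hdac11 alone (1.45, 1.18, 0.888 and 1.62). It also held for nuclear or cytosolic sirtuins (33.0, 28.0, 25.2 and 26.6) and bromodomain readers (28.7, 28.0, 26.3 and 33.9). The GNAT acetyltransferases (25.7, 22.9, 23.6 and 26.7) and class IIb deacetylases (6.33, 4.77, 4.91 and 8.47) were lowest in batch B young. The 4 class I deacetylases had their highest mean in batch B old and their lowest in batch C old, with 69.6 ± 1.89, 79.5 ± 4.85, 82.6 ± 4.26 and 66.8 ± 2.23. The 3 mitochondrial sirtuins summed to 3.98 ± 0.468, 3.90 ± 0.302, 3.87 ± 0.197 and 6.18 ± 0.162, so that batch C old had the highest mean, and Sirt4 alone reached 4.27 ± 0.184 there against 1.98 ± 0.225 in batch A young. These sums are descriptions without a test.

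Old and young MSCs were first compared with batch in the model, in which case the age coefficient is the difference between the 2 old and the 2 young libraries of batch B. None of the 31 genes passed an adjusted p of 0.05 in edgeR's quasi-likelihood test, in which 2.23% of 16132 tested genes passed (0.694% higher and 1.54% lower). At an unadjusted p under 0.05 there were 5 of the 31 genes, a share like that of 2597 of 16132 tested genes. Of the 31 genes, limma-trend called 0 and DESeq2 called 1, Kat7. The fitted log2 difference was positive for 13 and negative for 18 of the 31 genes, with a median of -0.11 beside 0.0044 over all tested genes. That median was -0.17 without batch B young replicate 2 and 0.025, with 17 genes positive and 14 negative, without batch B young replicate 1. It was -0.041 when scaled by total counts and -0.049 after a correction for transcript length and GC content in each library. The lowest p belonged to acetyltransferases and a class IIa deacetylase on the lower side and to Hat1 on the higher side.

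Kat7 (chromosome 11, 95274259 to 95310246, minus strand in GRCm38), the MYST enzyme also called HBO1 that acetylates histone H3 and H4 at origins and promoters, was at 67.7, 62.8, 62.7 and 65.1 in the batch A young libraries, 55.2 and 46.9 in batch B young, 38.6 and 39.2 in batch B old and 53.8, 56.1 and 53.01 in batch C old (all CPM). Both old libraries of batch B were below both young libraries, and all batch C old libraries were below all batch A young libraries. Its log2 difference in batch B was -0.39 ± 0.11 (SE) with an adjusted p of 0.0716, and over 21 alternative settings the adjusted p lay between 0.00808 and 0.421. Crebbp, also called CBP, was at 59.05, 58.4, 63.2 and 55.3 in the batch A young libraries, 50.3 and 37.8 in batch B young, 32.4 and 33.6 in batch B old and 58.02, 58.9 and 60.3 in batch C old (CPM). Here too the old libraries of batch B were below the young ones (log2 difference -0.42 ± 0.13 SE, adjusted p = 0.104), whereas batch C old and batch A young overlapped. Hdac5, a class IIa deacetylase that represses MEF2 target genes, was at 72.8, 88.9, 92.2 and 86.8 in the batch A young libraries, 61.7 and 54.03 in batch B young, 41.5 and 49.3 in batch B old and 73.7, 77.1 and 74.3 in batch C old (CPM). Its log2 difference in batch B was -0.35 ± 0.13 (SE) with an adjusted p of 0.178, and the batch C old libraries lay within the batch A young range.

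On the higher side, Hat1, which acetylates newly made histone H4 before it is placed on DNA, was at 22.6, 19.8, 21.1 and 21.8 in the batch A young libraries, 17.04 and 21.4 in batch B young, 26.1 and 21.2 in batch B old and 31.6, 28.9 and 30.4 in batch C old (CPM). The 2 ages overlapped in batch B (log2 difference 0.30 ± 0.14 SE, adjusted p = 0.315). Beside it, the DNA replication list (19 tested genes) had 2 genes higher and 0 lower in old libraries, led by Gins2 at 0.92 ± 0.17 (SE, adjusted p = 0.00922), and its part in the Hat1 value was not tested. Kat5, also called Tip60, was at 11.96, 10.5, 9.91 and 12.6 in the batch A young libraries, 10.4 and 13.3 in batch B young, 13.3 and 13.2 in batch B old and 20.6, 18.5 and 18.1 in batch C old (CPM), and Hdac1 at 98.6, 92.5, 91.2 and 91.3 in the batch A young libraries, 99.97 and 124 in batch B young, 118 and 123 in batch B old and 109.5, 102 and 102 in batch C old (CPM). Neither separated the ages in batch B, with log2 differences of 0.16 ± 0.16 (SE, adjusted p = 0.667) and 0.11 ± 0.11 (SE, adjusted p = 0.686). Kat5 shares 12.1% of its exon bases with Rnaseh2c on the opposite strand, and it was not stated whether strand was used in counting.

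In batch B, both old libraries lay above both young libraries for 2 of the 31 genes (Hdac2 and Sirt4) and below them for 8 (Hdac5, Hdac8, Hdac11, Sirt1, Sirt2, Ep300, Crebbp and Kat7). Over all tested genes these shares were 19.2% and 20.6%. Separation in the same direction also between batch C old and batch A young, which share no library with batch B, was found for Sirt4 on the higher side and for Sirt2 and Kat7 on the lower side, against 5.96% and 8.05% of all tested genes. The counts of 1 and 2 of 31 genes are near these shares and are not a result about the 31 genes as a group.

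The age result rested on single libraries. Without batch B young replicate 2, 6 of the 31 genes were called lower in old MSCs, and these were Kat7 (-0.51 ± 0.10 SE), Crebbp (-0.61 ± 0.11 SE), Ep300 (-0.54 ± 0.14 SE), Kat6a (-0.57 ± 0.13 SE), Kat2a (-0.47 ± 0.13 SE) and Sirt2 (-0.42 ± 0.11 SE). Without batch B young replicate 1 there were 0, and Hdac1 and Kat5 then had log2 differences of -0.042 and -0.0075, on the other side of 0. The number of genes called in the whole table was 2007 without batch B young replicate 2, 578 without batch A young replicate 1, 206 without batch B young replicate 1, 203 without batch B old replicate 2 and 84 without batch B old replicate 1, in place of 360. Scaled by total counts, 44.8% in place of 31.1% of those calls were higher in old MSCs.

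**Figure D2:**
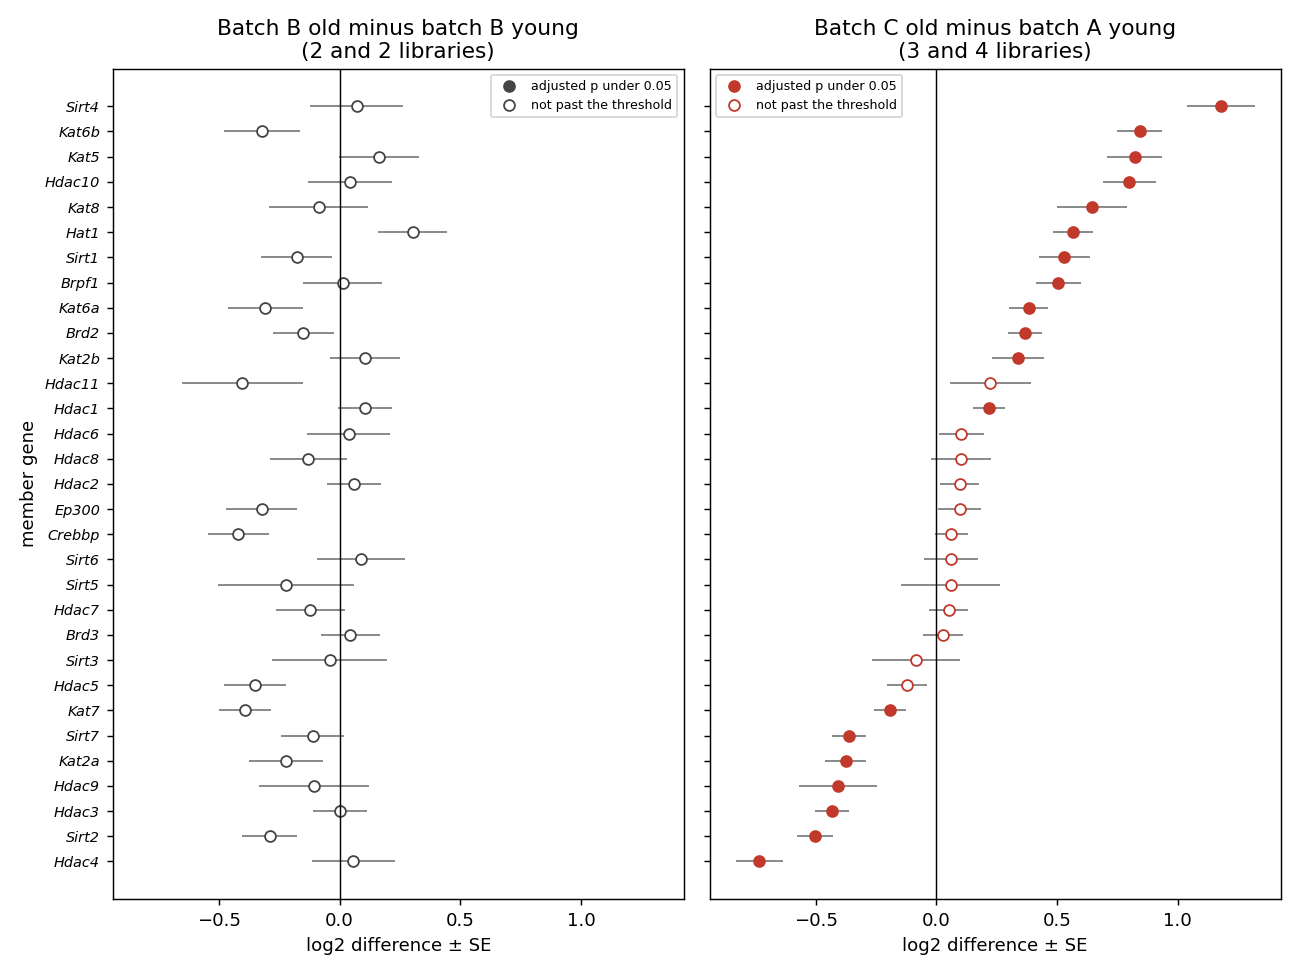
Log2 difference ± SE (horizontal axis) of each of the 31 genes between old and young MSCs, in batch B on the left and between batch C old and batch A young on the right, with filled points for an adjusted p under 0.05. No point is filled on the left, and 19 are filled on the right, from Hdac4 at -0.73 to Sirt4 at 1.18.

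Young MSCs of batch B were next compared with those of batch A, which gives the difference between batches within an age. The class IIa deacetylases Hdac5 and Hdac7 and the acetyltransferase Ep300 were lower in batch B, and none of the 31 genes was called higher. These 3 calls make up 9.68% of the genes described, while 18.1% of 14840 tested genes were called (9.39% higher and 8.71% lower). The median log2 difference of the 31 genes was -0.21 beside 0.0093 over all tested genes. It was -0.039 without batch B young replicate 2, -0.32 without batch B young replicate 1 and -0.020 after the correction for length and GC content.

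Hdac7, known for its role in vessels and thymocytes, was at 101, 97.4, 88.7 and 80.2 in the batch A young libraries, 70.02 and 52.7 in batch B young, 60.3 and 52.6 in batch B old and 88.9, 88.9 and 96.1 in batch C old (CPM). Both batch B young libraries lay below all batch A young libraries (log2 difference -0.56 ± 0.14 SE, adjusted p = 0.0193). Ep300, also called p300, was at 80.5, 89.7, 83.6 and 74.3 in the batch A young libraries, 64.03 and 46.5 in batch B young, 44.04 and 44.5 in batch B old and 73.8, 86.7 and 91.9 in batch C old (CPM). It likewise separated the batches, with a log2 difference of -0.55 ± 0.14 (SE, adjusted p = 0.0205). For Hdac5, whose values stand above, the log2 difference was -0.53 ± 0.13 (SE, adjusted p = 0.0167).

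The lowest p on the higher side belonged to Hdac1, Hdac2 and Kat8, none of which was called. Hdac2, the partner of Hdac1 in the same corepressors, was at 87.9, 74.2, 72.1 and 85.5 in the batch A young libraries, 92.4 and 96.1 in batch B young, 98.1 and 98.3 in batch B old and 82.9, 79.8 and 83.6 in batch C old (CPM), and both batch B young libraries lay above all batch A young libraries (log2 difference 0.26 ± 0.12 SE, adjusted p = 0.161). Hdac1 separated the batches as well (0.28 ± 0.12 SE, adjusted p = 0.128). Kat8, also called MOF, which acetylates histone H4, was at 7.92, 9.96, 7.18 and 10.8 in the batch A young libraries, 9.90 and 14.1 in batch B young, 10.7 and 11.8 in batch B old and 13.8, 13.7 and 12.7 in batch C old (CPM) and overlapped between batches (0.44 ± 0.21 SE, adjusted p = 0.166).

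The 3 calls depended on single libraries. Without batch B young replicate 2 none of the 31 genes was called, and without batch B young replicate 1 there were 11, of which Hdac1 was higher and 10 were lower. Without batch A young replicate 2 the call remained for Hdac5 alone, and without batch A young replicate 3 for Hdac7 alone. Over the whole table the number of called genes was 511, 4031, 1867 and 1293 in these 4 settings, and 1726 without batch A young replicate 4, in place of 2686. After the length and GC correction none of the 3 was called and the reader Brd2 was called higher, while 1954 of 14840 tested genes were called. Scaled by total counts, 66.4% in place of 51.9% of the calls over the table were higher in batch B. The blood cell markers had 7 of 17 tested genes lower and 0 higher in batch B young, and the DNA replication list had 9 of 18 lower and 0 higher, and their part in these differences was not tested.

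Old MSCs of batch C differed from those of batch B in 20 of the 31 genes, of which 16 were higher and 4 were lower in batch C. Acetyltransferases made up 7 of the higher genes, and the 4 lower genes were deacetylases. Among all genes, 64.7% of 15651 tested genes were called, so that the share of 64.5% among the 31 genes is close to the background. By direction, 51.6% of the 31 genes were higher and 12.9% lower, beside 32.1% and 32.6% of all tested genes. The median log2 difference was 0.43 for the 31 genes and 0.023 for all tested genes.

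Kat6b (chromosome 14, 21481434 to 21672478, plus strand in GRCm38), the acetyltransferase also called MORF that acts in a complex with Brpf1, was at 29.4, 36.1, 32.3 and 27.1 in the batch A young libraries, 31.2 and 24.6 in batch B young, 19.9 and 24.8 in batch B old and 50.2, 53.1 and 57.6 in batch C old (CPM). All batch C old libraries lay above every other library, and the log2 difference to batch B old was 1.26 ± 0.10 (SE, adjusted p = 5.68e-07). The share of all tested genes with batch C old apart from every other library was not computed, here or for the genes below. Kat6a, the close relative of Kat6b also called MOZ, was at 62.4, 69.3, 58.6 and 57.3 in the batch A young libraries, 59.3 and 39.5 in batch B young, 39.4 and 40.7 in batch B old and 70.8, 80.2 and 81.1 in batch C old (CPM). Its batch B old libraries were well below those of batch C (0.94 ± 0.079 SE, adjusted p = 7.87e-07). Crebbp, given above, followed with 0.84 ± 0.070 (SE, adjusted p = 7.93e-07) and Ep300 with 0.92 ± 0.092 (SE, adjusted p = 3.47e-06).

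The other genes that were higher in batch C were deacetylases outside class I, sirtuins, acetyltransferases and bromodomain proteins. Among deacetylases, Hdac10, known as a polyamine deacetylase, differed by a log2 of 1.03, Hdac11, the only class IV enzyme, which shares 15.4% of its exon bases with Gm44002 on the opposite strand, by 0.86, Hdac5 by 0.72, Hdac7 by 0.69 and the tubulin deacetylase Hdac6 by 0.47. Sirt4, a mitochondrial sirtuin, differed by 0.93 and Sirt1, the best known nuclear sirtuin, by 0.46. Among acetyltransferases, Kat5, Kat7 and Hat1 differed by 0.53, 0.48 and 0.35. Of the bromodomain proteins, the BET protein Brd2 and Brpf1, the scaffold of the Kat6 complexes, differed by 0.44 and 0.43, whereas Brd3, the other BET protein, at 0.12 did not pass the threshold (adjusted p = 0.159). The adjusted p of the genes called higher lay between 5.68e-07 (Kat6b) and 0.00927 (Hat1).

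Hdac4 (chromosome 1, 91928779 to 92195699, minus strand in GRCm38), the class IIa deacetylase that restrains chondrocyte and bone maturation, was at 42.3, 34.2, 35.999 and 32.6 in the batch A young libraries, 35.8 and 26.1 in batch B young, 37.03 and 27.5 in batch B old and 21.2, 19.7 and 22.04 in batch C old (CPM). All batch C old libraries were below every other library (log2 difference to batch B old -0.62 ± 0.12 SE, adjusted p = 0.00069), and 22.4% of its exon bases are shared with Gm26720 on the opposite strand. Hdac3 was at 85.6, 87.7, 97.1 and 91.4 in the batch A young libraries, 96.9 and 93.6 in batch B young, 86.3 and 104 in batch B old and 66.4, 61.7 and 64.5 in batch C old (CPM), and again batch C old lay below every other library (-0.57 ± 0.082 SE, adjusted p = 6.96e-05). Hdac2 and Hdac1 were lower by smaller amounts, with -0.26 ± 0.062 (SE, adjusted p = 0.00275) and -0.21 ± 0.065 (SE, adjusted p = 0.0145). The call of Hdac1 was lost without batch B old replicate 2, without batch C old replicate 2 and without batch C old replicate 3, and that of Hat1 without batch B old replicate 2. Scaled by total counts, which moved the median of all tested genes by 0.19 on the log2 scale, Hdac1 and Hdac2 were not called, and 22 of the 31 genes were higher and 2 lower. Of 15651 tested genes, 6472 were then called higher and 3825 lower, so that 62.9% in place of 49.6% of the calls were higher.

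**Figure D3:**
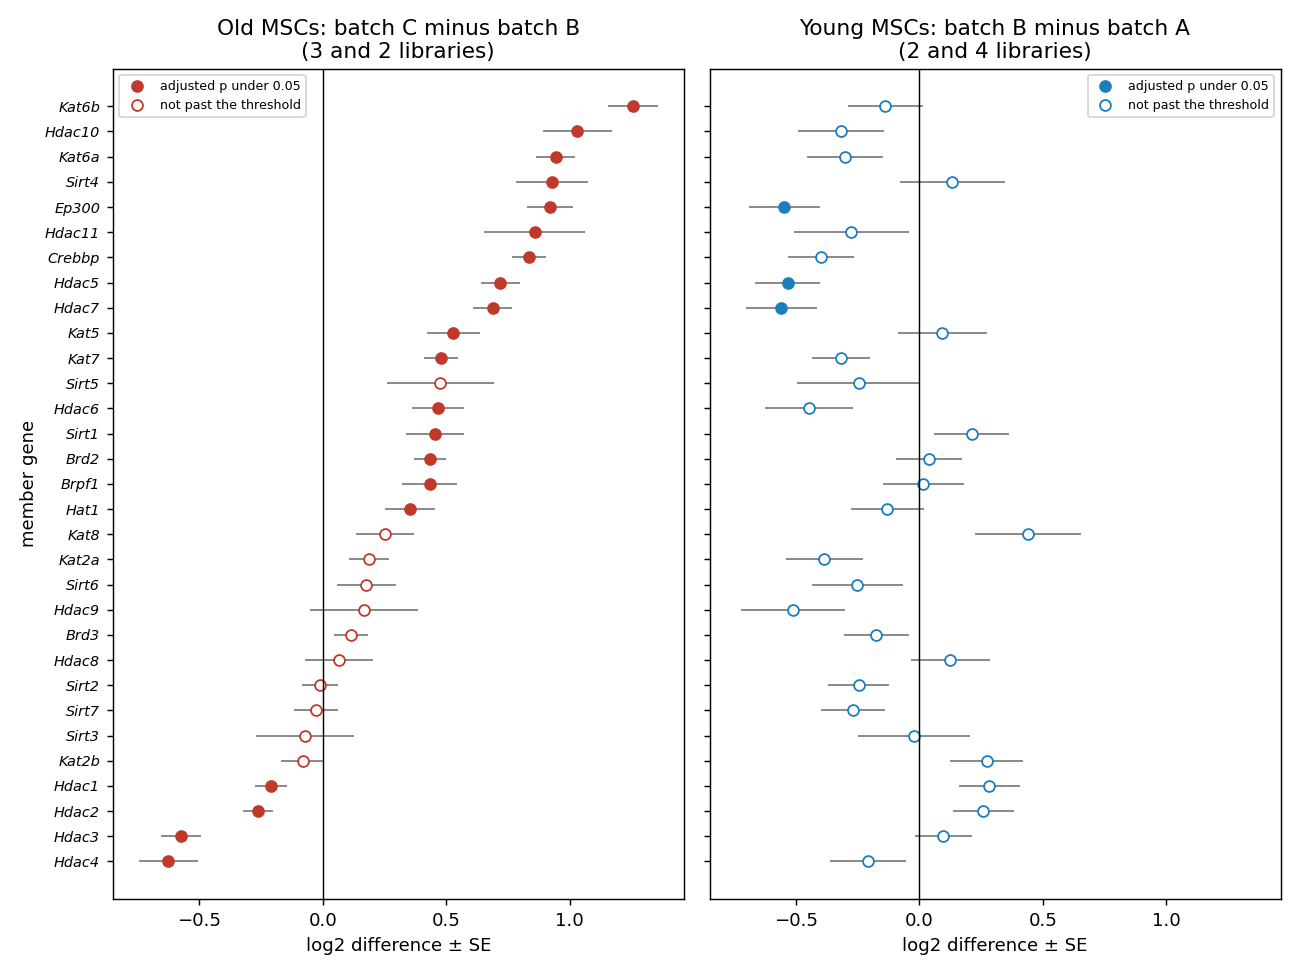
Log2 difference ± SE (horizontal axis) of each of the 31 genes between batches, for batch C minus batch B in old MSCs on the left and batch B minus batch A in young MSCs on the right, with filled points for an adjusted p under 0.05. On the left 16 genes are filled above 0, led by Kat6b at 1.26, and 4 below, with Hdac4 lowest at -0.62, while on the right only Hdac5, Hdac7 and Ep300 are filled.

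Between these batches the log2 difference was higher for longer transcripts over all genes, with a median of -0.60 in the decile of genes with the shortest merged exons (median 790 nt) and of 0.46 in the decile with the longest (median 12041 nt). Spearman's rho of log2 difference and length was 0.26 over 15633 genes, which share libraries and are not independent, and 0.16 over the 31 genes. The other comparisons gave other values. For age in batch B rho was -0.14 over all genes and -0.51 over the 31 genes. For batch B against batch A in young MSCs it was -0.11 and -0.45, and for batch C old against batch A young 0.20 and -0.30. The 31 genes are long, with a median of 5331 nt. Kat6b (16826 nt), Ep300 (14273 nt) and Crebbp (13540 nt) are in the longest decile, and so is Hdac4 (15813 nt), which moved the other way. Sirt4 (2398 nt) and Hdac10 (3379 nt) were higher although genes of their length had median differences of -0.12 and -0.06. After the correction for length and GC content, 19 of the 31 genes were called, 12 higher and 7 lower. Of 15651 tested genes, 4035 were then called higher and 5814 lower. The median of the 31 genes was 0.081 beside -0.088 over all tested genes. Of the 20 calls, 15 remained. Those of Hdac5, Hdac6, Hdac7, Brd2 and Brpf1 were lost, and Brd2 then had a log2 difference of -0.12. The part of length in the differences of single genes was not tested further.

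**Figure D4:**
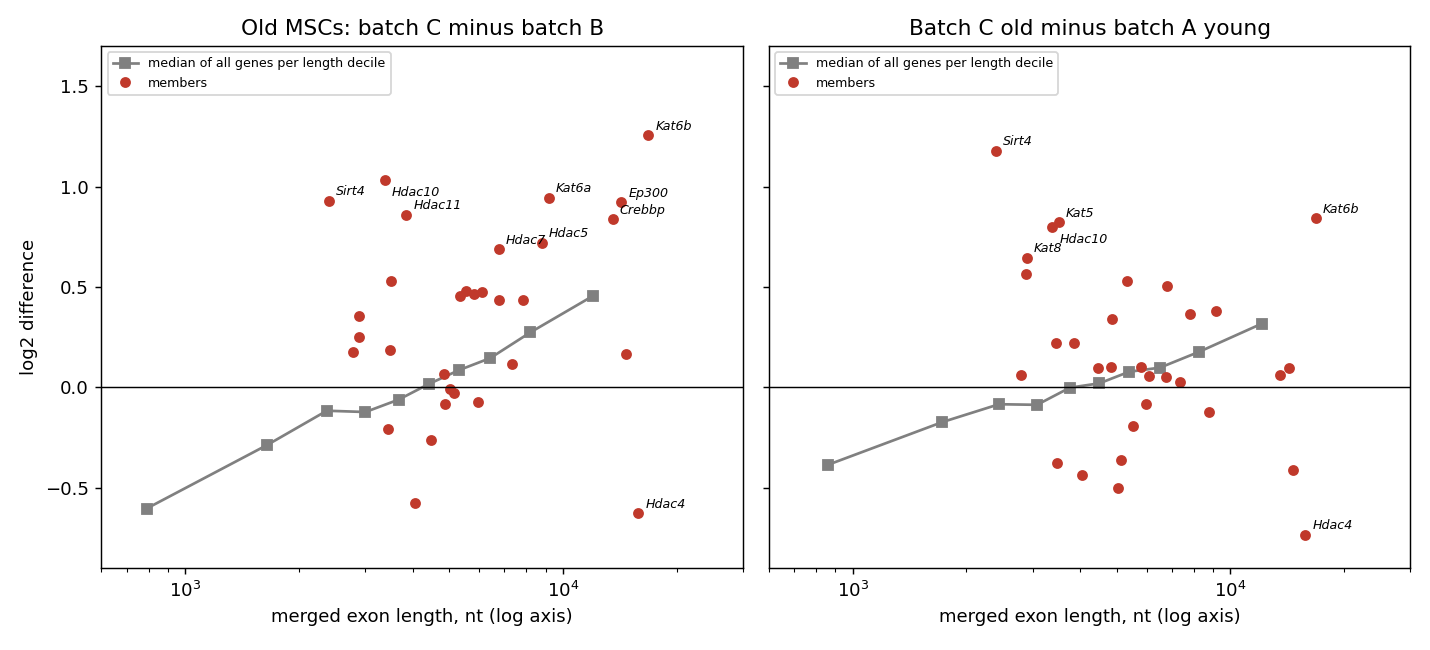
Log2 difference (vertical axis) against merged exon length (horizontal log axis) for the 31 genes as points, with the median of all tested genes in each decile of length as squares, for batch C minus batch B in old MSCs and for batch C old minus batch A young. The squares rise from -0.60 to 0.46 on the left, and Hdac4 lies far below them and Sirt4 and Hdac10 far above them in both panels.

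Because Kat6b and the paralogues Hdac4 and Hdac5 moved in different directions between the old batches, and Hdac2 fell with Hdac4, the 250 bases before their transcription start are shown for comparison (RefSeq, GRCm38.p6, written 5′ to 3′ on the strand of the gene). These windows were chosen because they overlap no annotated exon. Those of Hdac2 and Hdac5 lie before the gene in GENCODE M21, while those of Kat6b and Hdac4 lie in an intron of the longer GENCODE gene, which has a start farther upstream. Capitals mark matches on either strand to 5 motifs, searched by these letters. The first is GGGCGG, known as the GC box. The second is CCAAT, which NF-Y proteins bind. The third is TATAAA, which gives some promoters their start position. The fourth is CACGTG, which Myc and related proteins bind and which is called an E-box. The fifth is CCGGAAG, the core that ETS proteins bind. Neighbouring matches to GGGCGG can share bases.
Kat6b, chr14:21499520-21499769, plus strand: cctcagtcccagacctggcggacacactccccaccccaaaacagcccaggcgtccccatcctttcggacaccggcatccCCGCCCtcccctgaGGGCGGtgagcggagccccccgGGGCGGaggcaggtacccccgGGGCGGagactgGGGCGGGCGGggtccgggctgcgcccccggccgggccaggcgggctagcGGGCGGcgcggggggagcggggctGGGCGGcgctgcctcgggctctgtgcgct
Hdac5, chr11:102230173-102230422, minus strand: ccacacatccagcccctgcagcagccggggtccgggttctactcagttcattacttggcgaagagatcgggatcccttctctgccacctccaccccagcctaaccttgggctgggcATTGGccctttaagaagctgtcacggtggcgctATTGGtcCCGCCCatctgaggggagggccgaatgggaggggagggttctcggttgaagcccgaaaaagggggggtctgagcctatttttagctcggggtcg
Hdac4, chr1:92180342-92180591, minus strand: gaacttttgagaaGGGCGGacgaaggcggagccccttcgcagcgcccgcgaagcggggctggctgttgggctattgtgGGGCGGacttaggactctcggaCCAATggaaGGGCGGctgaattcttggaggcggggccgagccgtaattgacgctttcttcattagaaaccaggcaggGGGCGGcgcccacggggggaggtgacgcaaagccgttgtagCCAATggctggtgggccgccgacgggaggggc
Hdac2, chr10:36974294-36974543, plus strand: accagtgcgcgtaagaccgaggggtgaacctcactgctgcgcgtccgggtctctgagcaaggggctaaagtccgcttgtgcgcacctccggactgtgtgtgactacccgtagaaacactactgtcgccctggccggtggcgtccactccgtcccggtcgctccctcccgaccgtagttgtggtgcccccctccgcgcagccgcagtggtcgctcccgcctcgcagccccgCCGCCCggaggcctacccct
The Kat6b window held 8 GC boxes and no other of these motifs, the Hdac4 window 4 GC boxes and 2 CCAAT boxes, the Hdac5 window 1 GC box and 2 CCAAT boxes, and the Hdac2 window 1 GC box. Windows were found for 27 of the 31 genes, 1 for each gene, and 8 of these windows overlap no annotated exon. A GC box was in 63% of these and in 32.7% of 32851 windows of the same length, a CCAAT box in 44.4% and 33.8%, an ETS core in 14.8% and 6.91%, an E-box in 11.1% and 6.02%, and a TATA box in 7.41% and 12.4%. The median number of CpG dinucleotides was 17 in the member windows and 6 in all windows. The windows in all were not limited to tested genes or to a single window per gene. These contrasts are therefore not a result about the 31 genes. Hdac9, the gene with the lowest level, had 0 CpG and a TATA box. A match is a description of the letters and not a binding site.

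Batch C old was then compared with batch A young, where age and batch cannot be told apart. Of the 31 genes, 19 were called, 12 higher and 7 lower in batch C old. This is 61.3% beside 63.8% of 15021 tested genes, with 38.7% higher beside 32% and 22.6% lower beside 31.9%. The median log2 difference was 0.097, and 0.021 over all tested genes.

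Sirt4 (chromosome 5, 115478010 to 115484725, minus strand in GRCm38) differed most. It was at 4.10, 5.32, 4.54 and 5.04 in the batch A young libraries, 5.05 and 5.17 in batch B young, 5.45 and 5.27 in batch B old and 10.4, 9.75 and 10.6 in batch C old (CPM), so that batch C old lay above every other library, and both batch B old libraries lay above both batch B young libraries by less than the range of batch A young (log2 difference to batch A young 1.18 ± 0.14 SE, adjusted p = 1.18e-05). Kat6b was higher by 0.84 ± 0.095 (SE, adjusted p = 7.48e-06). Hdac10 was at 9.53, 11.2, 10.98 and 10.1 in the batch A young libraries, 7.81 and 8.71 in batch B young, 9.56 and 7.41 in batch B old and 18.9, 16.2 and 16.97 in batch C old (CPM), with batch C old again above every other library (0.80 ± 0.11 SE, adjusted p = 3.79e-05). The acetyltransferases Kat5, Kat8, Hat1, Kat6a and Kat2b, also called PCAF, were higher by log2 differences of 0.82, 0.65, 0.57, 0.38 and 0.34. Sirt1, Brpf1, Brd2 and Hdac1 were higher by 0.53, 0.51, 0.37 and 0.22.

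On the lower side, Hdac4 differed by -0.73 ± 0.099 (SE, adjusted p = 3.51e-05) and Hdac3 by -0.43 ± 0.070 (SE, adjusted p = 0.000142). Sirt2 was at 67.03, 74.04, 67.04 and 74.3 in the batch A young libraries, 64.1 and 53.2 in batch B young, 49.1 and 46.9 in batch B old and 49.9, 48.2 and 45.2 in batch C old (CPM). The old libraries of both batches lay at 45.2 to 49.9 CPM, below every young library. The share of all tested genes with this pattern was not computed. In batch B the log2 difference between the ages was -0.29 and was not called. That of batch C old to batch A young was -0.50 ± 0.074 (SE, adjusted p = 7.25e-05). Hdac9, Kat2a, Sirt7, the nucleolar sirtuin, and Kat7 differed by -0.41, -0.38, -0.36 and -0.19, the last of which was 0.10 when libraries were scaled by total counts. Hdac9 was called in 6 of 15 alternatives, and its call was lost without batch A young replicate 1, 2 or 4, without batch C old replicate 1 or 3, with DESeq2 and without a filter on low counts. The call of Kat7 was lost without batch C old replicate 1 or 3, that of Hdac1 without batch C old replicate 1, and that of Kat2b without batch C old replicate 2.

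Scaling by total counts moved the median of all tested genes by 0.29 on the log2 scale in this comparison, so that 21 of the 31 genes were called higher and 2 lower. Of 15021 tested genes, 7214 were then called higher and 2734 lower, so that 72.5% in place of 50.1% of the calls were higher. Of the 31 genes, Hdac4 and Sirt2 were still called lower. After the length and GC correction 10 of the 31 genes were called higher and 8 lower, beside 3850 and 5561 of 15021 tested genes. Sirt1 (adjusted p = 0.0559) and Kat2b (adjusted p = 0.182, edgeR) lost their calls. Of the blood cell markers, 16 of 17 tested genes were lower in batch C old than in batch A young and 0 were higher. Of those tested between the old batches, 17 of 18 were lower in batch C, with Lyz2 at -2.91 ± 0.12 (SE, adjusted p = 3.98e-09), and 1 was higher (Cd79a, with group means of 0.0337 CPM in batch B old and 0.393 CPM in batch C old). The DNA replication list had 11 and 8 of 18 tested genes higher in batch C old against batch B old and batch A young, and 0 lower. The part of these 2 lists in the differences of the 31 genes was not tested.

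The remaining genes were called in none of the 4 comparisons. Hdac8, a class I enzyme outside the large corepressors, had group means of 11.2 ± 0.772 CPM (SD, n = 4) in batch A young, 12.02 ± 0.163 (n = 2) in batch B young, 10.997 ± 0.161 (n = 2) in batch B old and 11.5 ± 1.52 (n = 3) in batch C old. Sirt3, the main mitochondrial deacetylase, had 5.41 ± 0.948, 5.22 ± 0.647, 5.09 ± 0.823 and 4.89 ± 0.703 CPM, and Sirt5, a mitochondrial desuccinylase, 6.68 ± 1.43, 5.48 ± 1.39, 4.72 ± 0.683 and 6.60 ± 1.54 CPM. The libraries of all groups overlapped for Sirt3, whereas for Sirt5 both batch B old libraries lay below all batch C old libraries. Sirt6, a chromatin-bound sirtuin linked to genome stability, had 14.2 ± 1.24, 11.8 ± 3.34, 12.6 ± 0.597 and 14.3 ± 1.23 CPM, and Brd3 54.3 ± 5.23, 47.4 ± 6.42, 48.9 ± 0.862 and 53.2 ± 1.71 CPM. A missed threshold does not show that these genes were equal.

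Closely related genes were also set against each other as the share that 1 of them takes of the pair, from CPM per kilobase. Of 10 pairs, 8 had shares in batch C old that did not overlap with those in batch A young, and this description has no test. The share of such pairs among other genes was not computed. In this comparison 63.8% of all tested single genes were called, so that the count is not a result about these pairs. The shares depend on the length used. Per kilobase of the longest transcript, 8 pairs again did not overlap, but the Kat6b share, for example, was 37.3% in batch A young and 45.1% in batch C old. The 3 pairs with the largest change of mean share were Hdac6 and Hdac10, Kat2a and Kat2b, and Kat7 and Kat8. The Hdac10 share was 45.97, 48.8, 52.6 and 48.1 in the batch A young libraries, 45.3 and 58.1 in batch B young, 55.5 and 46.4 in batch B old and 61.9, 59.7 and 60.3 in batch C old (all percent), and Hdac6 itself was at 19.3, 20.3, 17.01 and 18.7 in the batch A young libraries, 16.3 and 10.8 in batch B young, 13.2 and 14.8 in batch B old and 20.1, 18.8 and 19.2 in batch C old (CPM), with batch C old within the range of batch A young. The Kat2b share was 29.8, 36.5, 26.2 and 28.6 in the batch A young libraries, 36.2 and 46.2 in batch B young, 44.2 and 48.1 in batch B old and 40.4, 44.5 and 39.98 in batch C old (all percent). Here the libraries of batch A young were the lowest but for an overlap with batch B young, and batch C old lay above all of batch A young. Kat2a was at 48.7, 39.6, 45.8 and 43.7 in the batch A young libraries, 39.8 and 27.2 in batch B young, 29.2 and 28.4 in batch B old and 33.9, 31.02 and 33.9 in batch C old (CPM) and Kat2b at 28.97, 31.8, 22.8 and 24.4 in the batch A young libraries, 31.6 and 32.7 in batch B young, 32.3 and 36.9 in batch B old and 32.1, 34.8 and 31.5 in batch C old (CPM). The Kat8 share was 18.3, 23.3, 17.999 and 24.1 in the batch A young libraries, 25.6 and 36.5 in batch B young, 34.7 and 36.5 in batch B old and 32.9, 31.9 and 31.4 in batch C old (all percent), again with batch A young lowest. For the last 2 pairs the old libraries of batch B exceeded the mean of its young libraries by 4.92 and 4.54 percentage points, but the libraries of the 2 ages overlapped.

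The other shares changed less. The Hdac5 share of the Hdac4 and Hdac5 pair was 75.6, 82.4, 82.2 and 82.8 in the batch A young libraries, 75.6 and 78.9 in batch B young, 66.9 and 76.3 in batch B old and 86.2, 87.6 and 85.8 in batch C old (all percent), so that the mean was lowest in batch B old and highest in batch C old, which lay above every other library. The Kat6b share of the Kat6 pair went from a mean of 21.6 ± 1.28% (SD, n = 4) in batch A young to 27.4 ± 0.784% (n = 3) in batch C old, and the Sirt7 share of Sirt6 and Sirt7 went from 68.95 ± 1.57% to 62.3 ± 1.26%. Hdac2 made up 39.7 ± 1.97% and 37.8 ± 0.957% of the Hdac1 and Hdac2 pair, and Crebbp 43.2 ± 1.65% and 42.7 ± 2.35% of the Ep300 and Crebbp pair. In these 2 pairs, whose products act in the same complexes or at the same enhancers, the libraries of the 2 groups overlapped.

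**Figure D5:**
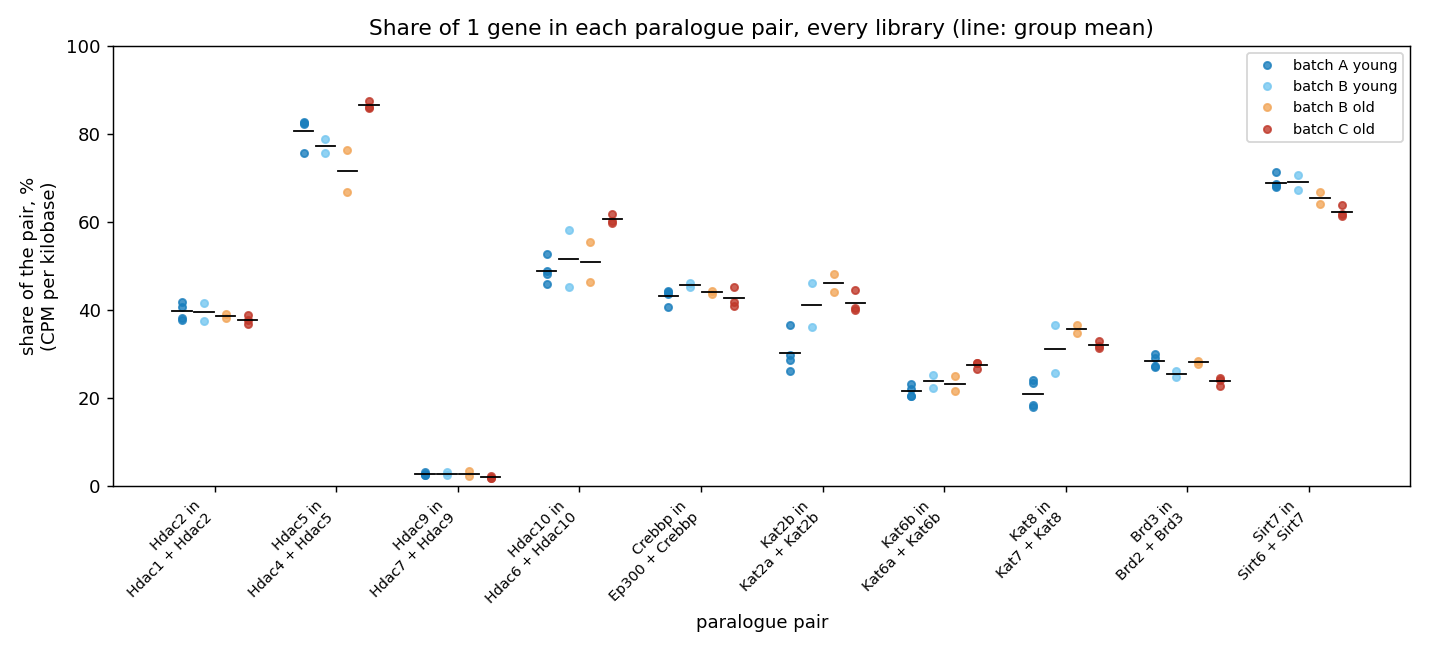
Share of 1 gene in each of 10 pairs of related genes, in percent of the pair's CPM per kilobase (vertical axis from 0 to 100), with a point for each library and a line at each group mean. The Hdac5, Hdac10, Kat2b, Kat6b and Kat8 shares are higher in batch C old than in batch A young, the Brd3, Hdac9 and Sirt7 shares are lower, and the Hdac2 and Crebbp shares overlap.

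Genes that work with the 31 enzymes and readers were followed in 7 lists of 154 genes in all, of which 153 were tested. The lists were chosen with earlier results of these data known, so that their counts are a description. Between old and young MSCs of batch B, none of them was called by edgeR or limma-trend, and 1 was called by DESeq2. In the edgeR test 13 of the 153 had an unadjusted p under 0.05, a smaller share than the 2597 of 16132 tested genes. Over all tested genes 2.23% were called by edgeR. Between batch B and batch A in young MSCs, 9 were called higher and 18 lower, beside 9.39% and 8.71% of all tested genes. Among 32 tested subunits of class I HDAC complexes there were 2 higher and 2 lower. Among 31 other bromodomain and YEATS readers there were 1 higher and 5 lower, with Kmt2a at -0.82 ± 0.14 (SE, adjusted p = 0.00325). The acetyltransferase complex subunits had 0 higher and 4 lower of 38 in the edgeR test, and the 18 partners of class IIa deacetylases had 2 higher and 4 lower.

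Between the old batches 80 of the 153 genes were higher and 36 lower in batch C. The other bromodomain and YEATS readers had 26 of 31 higher and 1 lower, with a median log2 difference of 0.69. Brd8, a subunit of the Tip60 complex, was higher by 1.23 ± 0.070 (SE, adjusted p = 3.49e-08), and Yeats4, also in that complex, was the gene that was lower (-0.55 ± 0.10 SE, adjusted p = 0.000456). Of 38 acetyltransferase complex subunits 20 were higher and 6 lower, led by Trrap, a scaffold of the Tip60 and SAGA complexes, at 1.46 ± 0.097 (SE, adjusted p = 1.2e-07). Of 32 class I HDAC complex subunits 13 were higher and 12 lower, led by Chd4 of NuRD at 0.62 ± 0.065 (SE, adjusted p = 5.41e-06) and by Cdk2ap1 at -1.14 ± 0.088 (SE, adjusted p = 3.85e-07). The suppliers of nuclear acetyl-CoA had 1 of 9 higher and 5 lower, and those of NAD 5 of 13 higher and 4 lower, with Nnmt at -1.03 ± 0.086 (SE, adjusted p = 7.21e-07). The partners of class IIa deacetylases had 10 of 18 higher and 4 lower, led by the MEF2 factor Mef2c at 1.23 ± 0.11 (SE, adjusted p = 1.71e-06), and the nuclear receptor coactivators and other acetyltransferases had 5 of 12 higher and 4 lower. These shares stand beside 32.1% higher and 32.6% lower in the whole table, which holds genes of every length. As given above, the log2 difference rose with length over all genes. The 7 lists were not counted after the correction for length and GC content in any comparison. The part of length in their counts was not tested.

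Against batch A young, batch C old had 76 of the 153 genes higher and 39 lower, beside 32% and 31.9% of all tested genes. The other bromodomain and YEATS readers had 25 of 31 higher and 5 lower, the acetyltransferase complex subunits 17 of 38 higher and 7 lower, and the class I HDAC complex subunits 11 of 32 higher and 12 lower. Supt20 of SAGA was higher by 1.61 ± 0.098 (SE, adjusted p = 6.19e-08), and Slc25a1, the mitochondrial citrate carrier that exports the precursor of nuclear acetyl-CoA, was lower by a log2 difference of -0.64 ± 0.073 (SE, adjusted p = 8.17e-06). In batch B, Slc25a1 overlapped between ages, at 89.1 and 87.8 CPM in young and 81.0 and 89.9 CPM in old libraries. Acss2 of the same list was higher in batch C old than in batch A young by 0.42 ± 0.11 (SE, edgeR, adjusted p = 0.00486). The nuclear acetyl-CoA list as a whole had 3 of 9 higher and 3 lower, the NAD list 7 of 13 higher and 4 lower, the class IIa partners 8 of 18 higher and 3 lower, and the coactivator list 5 of 12 higher and 5 lower.

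The age difference in batch B and that between batch C old and batch A young share no library, and the difference between them was tested in an addition made after the data were seen. It was past the threshold for 10 of the 31 genes (32.3%), beside 35.7% of 16132 tested genes, so that it was no more frequent among the 31 genes than in the table. Kat6b showed the largest value, with a log2 difference of -0.32 in batch B and 0.84 between batch C old and batch A young.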

How the data were processed

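Polyadenylated RNA of 11 libraries was sequenced, and the authors deposited 1 table of unnormalized counts for each gene. The submitters' processing notes name mm10 and GRCm38, while the aligner, the counter and the use of strand are not given in the sources used here. Counts were tested as deposited with edgeR 4.0.16 (quasi-likelihood, filterByExpr with a minimum count of 5, TMM factors, two-sided, Benjamini-Hochberg at 0.05) in R 4.3.3. Age was fitted to all libraries with batch, and the other comparisons to their own libraries. Alternatives were limma-trend 3.58.1 (prior count 2), DESeq2 1.42.0, RLE and total-count scaling, a minimum count of 10, no filter, a loess correction for length and GC (span 0.3), a replicate block, no batch term, batch B alone and leaving out each library. Exon lengths came from GENCODE M21, which matched 28179 of 28222 genes. The methods were also run on simulated counts with the same spread for every gene and with no outlying library or length trend. This run cannot show how the methods behave where the data have these. The members were set by gene name and not by a measured value, but they and all lists were chosen with earlier results of these data known. Values in every library are given for the 3 genes with the lowest p per direction and comparison and for the pairs whose shares differed most, and from other lists the called gene with the lowest p per direction may be named. No library was left out, and no repeated library was found.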

Additional observations from a re-analysis of the deposited data

Results flagged for a closer look

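Hdac1 in batch A young replicate 1 was at 98.6 CPM and stood apart from the other 3 libraries of that group, which lay at 91.2 to 92.5 CPM. It was the only one of the 31 genes with such a gap in the only group of 4 libraries, and chance gives such a gap in about 1 in 20 groups.

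For 10 genes the age difference between batch C old and batch A young differed from that in batch B, beside 35.7% of all tested genes. The values below are the first minus the second on the log2 scale (edgeR, 11 libraries), and age and batch cannot be told apart in the first. Kat6b differed by 1.10 ± 0.20 (SE, adjusted p = 0.000528) and Sirt4 by 1.05 ± 0.24 (SE, adjusted p = 0.00326), and both were called in 19 of 19 alternatives. Hdac4 differed by -0.85 ± 0.22 (SE, adjusted p = 0.00681) and Sirt1 by 0.65 ± 0.19 (SE, adjusted p = 0.0128), each called in 18 alternatives. Hdac3 differed by -0.49 ± 0.14 (SE, adjusted p = 0.0127) and was called in 17. Hdac10 differed by 0.70 ± 0.21 (SE, adjusted p = 0.0191) and Kat6a by 0.63 ± 0.20 (SE, adjusted p = 0.0201), each called in 15.

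Kat5 differed by 0.60 ± 0.21 (SE, adjusted p = 0.033) and Brd2 by 0.46 ± 0.16 (SE, adjusted p = 0.0334), each called in 12 of 19 alternatives. Crebbp differed by 0.42 ± 0.16 (SE, adjusted p = 0.0486) and was called in 6. Without batch B old replicate 2, 3 of the 10 calls remained (Hdac4, Kat6b and Sirt4), and without batch B old replicate 1, 5 remained. Scaled by total counts, 16 of the 31 genes were called, 9 of them shared with these 10, beside 6120 of 16132 tested genes.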

How the results depend on the processing

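Over the 945 combinations of a gene named with values and an alternative setting, 851 kept direction and side of the threshold, 82 lost and 7 gained a call, and 5 changed direction. The 5 were Hdac2 (-0.00011) between batch B and batch A in young MSCs and Brd2 (-0.12) between the old batches after the length and GC correction, Kat7 (0.10) between batch C old and batch A young when scaled by total counts, and, in batch B, Hdac1 (-0.042) and Kat5 (-0.0075) without batch B young replicate 1, where leaving out a library gave at most 0.26 and 0.34.

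For age in batch B, the number of called genes was 643 with DESeq2, 1094 without a filter, 2641 without a batch term and 123 with batch B alone, and 84 to 2007 when a library was left out. Of the 31 genes, DESeq2 and the length and GC correction each called 1 (Kat7, lower), the fit without batch 4 (Sirt2 lower, Sirt4, Kat5 and Hat1 higher), and fits without a library 0 to 6. Between batch B and batch A in young MSCs, the length and GC correction left 1 call, and leaving out a library gave 511 to 4031 called genes and 0 to 11 of the 31. The replicate block gave 729 genes and none of the 31 in that comparison. The correlation of deviations of same-numbered libraries was weak, between -0.111 and 0.135 over 13 pairs. These pairs are not independent, since the deviations mirror each other in groups of 2 libraries, and a weak correlation cannot exclude a pairing. The replicate block moved no other count by over 1.5 times. It ended the calls of Hdac1 between the old batches (edgeR, adjusted p = 0.0599) and of Hdac9 (0.0795) and Kat7 (0.0541) between batch C old and batch A young. In the comparisons with batch C the number of the 31 genes called stayed within 1.5 times under each alternative. With the longest transcript as length, 11 genes in place of 7 reached 10 CPM per kilobase. The cause of these changes was not tested.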

Other observations

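The cells held little RNA of endothelial or red blood cells. Of 10 endothelial markers 4 reached 1 CPM in any library, and Pecam1 and Cdh5, which define endothelium, had group means of at most 0.334 CPM. The other markers included Egfl7 (group means of 2.01 to 3.69 CPM), Erg (1.58 to 2.83 CPM) and the angiopoietin receptor gene Tek (1.56 to 6.74 CPM). Egfl7 was lower in batch C than in batch B in old MSCs (-0.86 ± 0.26 SE, adjusted p = 0.0119). Tek was higher, with 1.23 ± 0.30 (SE, adjusted p = 0.0151) on the log2 scale for batch B against batch A in young MSCs and 2.16 ± 0.29 (SE, adjusted p = 2.81e-05) for batch C old against batch A young. Of 8 red blood cell markers 2 reached 1 CPM, and their sum was 0 to 0.244 CPM in batch A young, 0.938 and 3.47 in batch B young, 3.91 and 2.27 in batch B old and 0.412 to 0.725 in batch C old.

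Among MSC markers, Pdgfra was lower in old than in young libraries of batch B (-0.86 ± 0.15 SE, adjusted p = 0.0059), and higher in batch C old than in batch A young (0.62 ± 0.096 SE, adjusted p = 0.00011). Col1a1, the gene of the main bone collagen, was lower in batch C old than in batch A young by a log2 difference of -1.50 ± 0.098 (SE, adjusted p = 9.91e-08). The MSC marker list had 0 of 12 genes higher and 2 lower with age in batch B, 2 higher and 2 lower between batch B and batch A in young MSCs, 5 higher and 3 lower between the old batches, and 5 higher and 5 lower between batch C old and batch A young. Over all tested genes 2.23%, 18.1%, 64.7% and 63.8% were called in either direction, in the same order of comparisons.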
